A study of Mus musculus with 2 samples.

Results

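Imprinted genes were described in primordial germ cells (PGCs), the embryonic precursors of oocytes and sperm, after 1 day in culture with or without over-expression (OE) of Klf9. The list held 41 imprinted mouse genes, 15 of them known as maternally expressed and 26 as paternally expressed. Of the 41 genes, 35 had a row of their own among the 23320 gene symbols present in both libraries, and the other 6 (H19, Meg3, Rian, Plagl1, Rtl1 and Snrpn) shared a row with a gene that overlaps them. They were taken whether or not their levels differed. PGCs at E13.5 were sorted by GFP from genital ridges of male and female embryos, pooled, of MCH females mated with Oct4-deltaPE-GFP males kept on C57BL/6J. Klf9-OE PGCs received a lentivirus that expresses the Klf9 coding region from an EF promoter, and control PGCs received a control lentivirus, both at an MOI of 5. Each condition was sequenced as 1 library of 51-mer single-end reads. The sample labels describe the medium as containing bFGF, whereas the results section of the study describes this experiment as done without bFGF. Expression is given as RPKM, the number of reads scaled by the exon length of a gene and by the size of the library, which can be compared between genes.

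Imprinted genes are transcribed mainly from the maternal or mainly from the paternal allele, because the germ line of 1 parent leaves DNA methylation at a control region that the embryo keeps. They lie in clusters, in which a long noncoding RNA from one parental allele often goes with silence of protein-coding neighbours on the same allele. Many act on growth of the fetus and placenta, with paternally expressed genes often promoting it and maternally expressed genes often restricting it. PGCs are the cells in which these marks are erased before new ones are set by sex, so that both alleles may be transcribed at this stage. The libraries hold no information on alleles, and the words maternally and paternally expressed below refer to the known pattern in somatic tissues. For 14 of the 35 genes, such as Igf2r, Ube3a and Grb10, that pattern is known only in some tissues or for some isoforms. KLF9 is a Krüppel-like zinc finger protein, a family that binds GC-rich boxes and CACCC boxes.

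The promoters of the 4 genes that differed at least 2-fold with 1 RPKM or more are shown first. Each window runs from upstream of the RefSeq transcription start (GRCm38.p6) to just past it, 5′ to 3′ on the strand of the gene. Capitals mark the GC box, spelled GGGCGG, and the box named CACCC for its letters, on either strand, so that CCGCCC and also GGGTG stand in capitals. Slc22a18 (chr7:143473539-143473838, plus strand), Phlda2 (chr7:143502475-143502774, minus strand), Zim1 (chr7:6696383-6696682, minus strand) and Rasgrf1 (chr9:89909525-89909824, plus strand) read as follows.
Slc22a18: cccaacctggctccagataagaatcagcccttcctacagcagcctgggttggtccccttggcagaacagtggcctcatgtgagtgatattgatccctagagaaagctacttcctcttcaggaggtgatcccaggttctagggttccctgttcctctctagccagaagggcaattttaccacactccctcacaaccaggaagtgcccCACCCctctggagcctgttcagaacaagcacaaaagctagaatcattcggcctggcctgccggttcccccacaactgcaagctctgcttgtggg
Phlda2: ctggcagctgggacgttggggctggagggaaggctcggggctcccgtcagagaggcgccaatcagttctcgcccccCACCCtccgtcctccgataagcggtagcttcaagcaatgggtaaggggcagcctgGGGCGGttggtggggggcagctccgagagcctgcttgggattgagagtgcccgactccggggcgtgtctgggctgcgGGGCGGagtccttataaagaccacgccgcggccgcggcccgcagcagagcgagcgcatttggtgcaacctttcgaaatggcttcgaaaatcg
Zim1: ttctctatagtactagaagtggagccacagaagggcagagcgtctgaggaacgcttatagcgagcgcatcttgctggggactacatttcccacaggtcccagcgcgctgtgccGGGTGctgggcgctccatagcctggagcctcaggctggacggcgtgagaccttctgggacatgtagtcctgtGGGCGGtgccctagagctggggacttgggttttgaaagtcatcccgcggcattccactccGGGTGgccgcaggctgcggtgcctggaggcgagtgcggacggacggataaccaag
Rasgrf1: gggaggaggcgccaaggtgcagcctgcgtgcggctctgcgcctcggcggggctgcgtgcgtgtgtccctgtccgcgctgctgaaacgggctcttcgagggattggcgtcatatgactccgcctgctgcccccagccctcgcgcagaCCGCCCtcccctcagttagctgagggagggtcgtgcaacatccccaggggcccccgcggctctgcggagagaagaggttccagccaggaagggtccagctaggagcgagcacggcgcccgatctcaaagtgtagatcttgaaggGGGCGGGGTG

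The Slc22a18 window held 2 CpG and no GC box, whereas the Phlda2, Zim1 and Rasgrf1 windows held 26, 20 and 26 CpG. Phlda2 and Rasgrf1 each had 2 GC boxes and 1 CACCC box, and in Rasgrf1 a GC box and the CACCC box at the end of the window share a base. Zim1 had 1 GC box and 2 CACCC boxes. Slc22a18 had 1 CACCC box. Promoters on chromosome 18, where Impact lies, were left out for the listed genes. RefSeq promoters elsewhere were found for 34 of the 41 genes, in 49 windows. A GC box stood in 22 of these windows (44.9%, against 35.7% of all 32851 promoters in the table) and a CACCC box in 31 (63.3% against 57.5%). TGCCGC, a hexamer in the motif of the imprint-protecting protein ZFP57, stood in 14 windows (28.6% against 11.6%). The Mest windows that start at positions 30737800 and 30737803 of chromosome 6 overlap almost entirely, and both count among these 14. The median number of CpG per window was 14 against 7. A match to these letters is a description of the window and not a binding site.

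The over-expressed gene, Klf9, had 2.27 RPKM in the control library (1.97 to 2.57) and 80.8 in the Klf9-OE library (77.0 to 84.5), where the bounds given in brackets here and below are those of the Cufflinks 95% interval. Germ cell markers were present throughout, with 12 of 12 at 1 RPKM or more in either library. Pou5f1 (387 in control, 277 in Klf9-OE), Dazl (351 and 378) and Ddx4 (300 and 292) were the highest of them in control PGCs. The sum of the list was 1873 in control and 1616 in Klf9-OE PGCs. The median log2 fold change of the 12 was -0.35, beside -0.03 for all genes with 1 RPKM or more. Intervals were separate and lower for Pou5f1, Dppa3, Nanog, Nanos3, Kit, Tfap2c, Prdm1, Dnd1 and Mael, beside 20.2% of all such genes. They were separate and higher for Dazl and Utf1, beside 14.8%, and overlapped for Ddx4. Of 12 gonad somatic markers found, 10 had 1 RPKM or more, and the sum of the list was 36.0 in control and 47.8 in Klf9-OE PGCs. The median log2 fold change of these 10 markers was 0.36. Col1a1 (9.09 and 12.5), Gata4 (6.21 and 7.47) and Amh (5.99 and 9.29) were the highest of these in control PGCs, and Star was listed at 0 in control and had 2.39 in Klf9-OE PGCs. Wt1 (3.41 and 5.64), Col1a2 (1.03 and 1.68), Cyp11a1 (3.27 and 3.60) and, near 0, Hsd3b1 (0.0249 and 0.0815) also had higher values in Klf9-OE PGCs. Sox9 (2.04 and 1.09), Wnt4 (2.98 and 2.59), Nr5a1 (1.61 and 1.19) and Foxl2 (0.314 and 0.257) had lower values in Klf9-OE PGCs. Intervals were separate and higher for Amh, Wt1, Gata4, Col1a1, Col1a2 and Star, beside 14.8% of all genes with 1 RPKM or more. The Star interval in control ran from 0 to 0. Intervals were separate and lower for Sox9 alone, beside 20.2%. Of 7 endothelial and blood markers found, 2 had a ratio of 2 or more and reached 1 RPKM (beside 3.93% of all genes at this minimum), Cdh5 (2.0 and 5.09) and Csf1r (0.307 and 1.18). Pecam1 had 16.8 and 24.2 and made up most of the sum of the list, which was 19.9 and 31.1. The sum thus mainly follows Pecam1 and is no measure of the amount of endothelial or blood cells. Another 2, Ptprc (0.0584 and 0.0239) and Adgre1 (0.0836 and 0.0196), were at least 2-fold lower near 0. Xist, from the inactive X chromosome of female cells, had 0.829 and 2.05, with separate intervals. Among Y-linked genes Eif2s3y had 59.0 and 49.3, also with separate intervals. Uty (4.95 and 5.50), Ddx3y (3.76 and 4.29) and Kdm5d (3.72 and 3.20) had overlapping intervals. The part of cell composition in the differences of imprinted genes was not tested, and in bulk libraries fewer cells of a type and less RNA per cell cannot be told apart.

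Of the 35 genes with a row of their own, 33 were above 0 in at least 1 library, 26 reached an RPKM of 1 in control PGCs, and 28 did so in Klf9-OE PGCs. Their RPKM in control PGCs ranged from 0.0244 for Magel2 to 101 for Commd1, with a median of 4.79, and the median was 5.01 in Klf9-OE PGCs. Over all 18742 genes above 0 in at least 1 library, the medians were 3.85 and 3.81. Commd1, a regulator of copper handling whose intron contains the imprinted Zrsr1, was the highest in both libraries, at 101 (94.3 to 107) in control and 96.7 (90.8 to 103) in Klf9-OE PGCs. Igf2r, Blcap, Ube3a and Peg3 followed in control PGCs, at 31.8, 30.9, 30.3 and 27.8. In Klf9-OE PGCs Ube3a (29.2), Blcap (28.2), Igf2r (28.1) and Peg3 (24.5) came next. The order of close neighbours is not resolved, since the intervals of 25 of 32 neighbouring pairs overlapped in control and 25 of 31 in Klf9-OE PGCs. Mest and Nespas were listed at 0 in both libraries. An exact 0 in Cufflinks output can be a failed estimate, and both genes overlap another gene with a high value, Copg2 (50.8 in control, 47.1 in Klf9-OE) and Gnas (61.4 and 60.8).

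**Figure D1:**
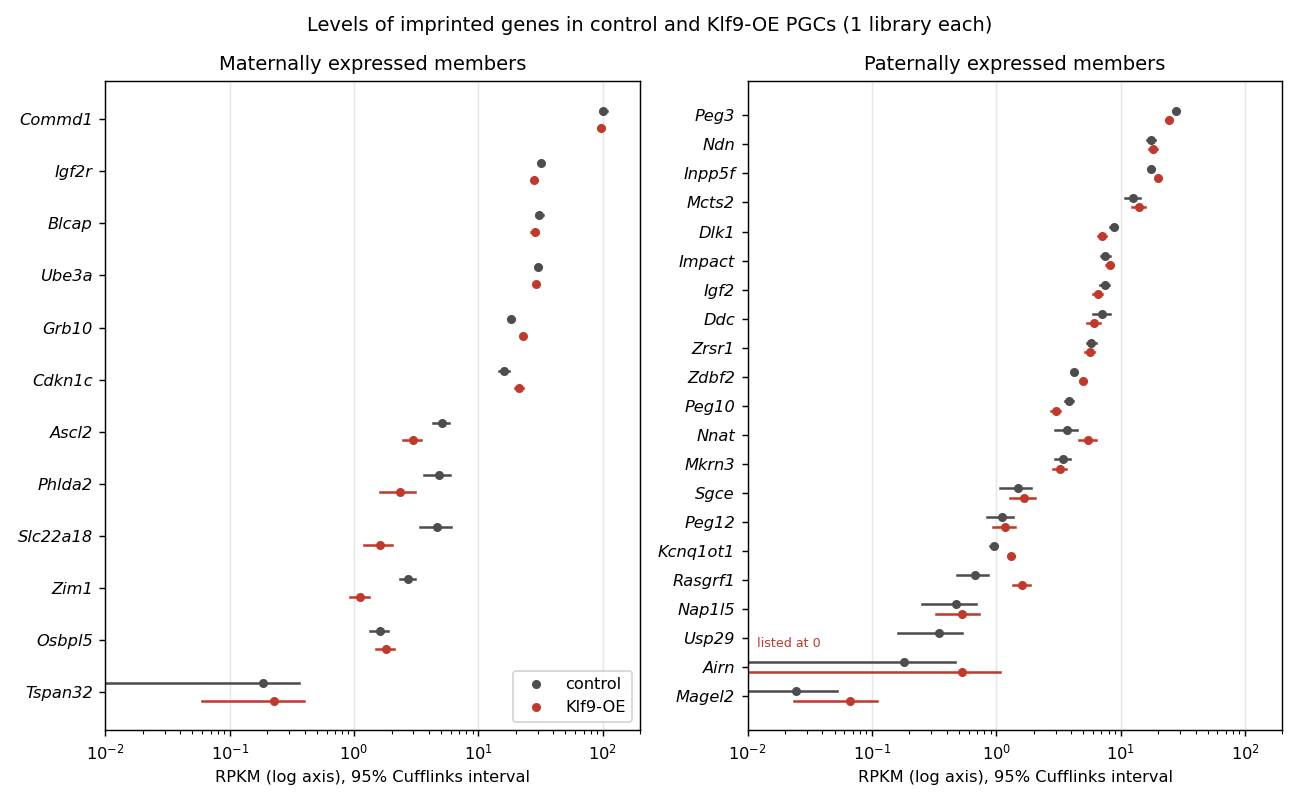
RPKM (log axis) of the imprinted genes above 0, ordered by the level in control PGCs, for 12 maternally expressed genes (left) and 21 paternally expressed genes (right). Points are the 1 control library (grey) and the 1 Klf9-OE library (red), and bars are the Cufflinks 95% interval, drawn to the left edge where the lower bound is below 0.01. Slc22a18, Phlda2, Zim1 and Ascl2 lie lower in Klf9-OE with separate intervals, and Rasgrf1 lies higher.

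To describe which imprinted genes differed between Klf9-OE and control PGCs, genes were counted whose ratio of RPKM was 2 or more, or 0.5 or less. Rasgrf1, Magel2 and Airn reached a ratio of 2, and Phlda2, Slc22a18, Zim1 and Usp29 were at least 2-fold lower. These are 3 and 4 of the 33 genes above 0, beside 9.82% of all genes called higher and 9.43% called lower. Among the 28 imprinted genes with 1 RPKM or more in either library, Rasgrf1 was higher and Phlda2, Slc22a18 and Zim1 were lower, beside 3.93% and 3.79% of 12565 genes. The median log2 fold change of the 28 genes, taken from log2(RPKM + 0.1) of Klf9-OE less that of control, was -0.05 (quartiles -0.19 and 0.18), and that of the 12565 genes was -0.03 (-0.21 and 0.14). The pseudocount of 0.1 makes the change of low genes appear smaller than it was. The median size of the log2 fold change, without its sign, was 0.19 for the imprinted genes and 0.18 for all genes. By this median the imprinted genes lay about as near to a ratio of 1 as all genes did.

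**Figure D2:**
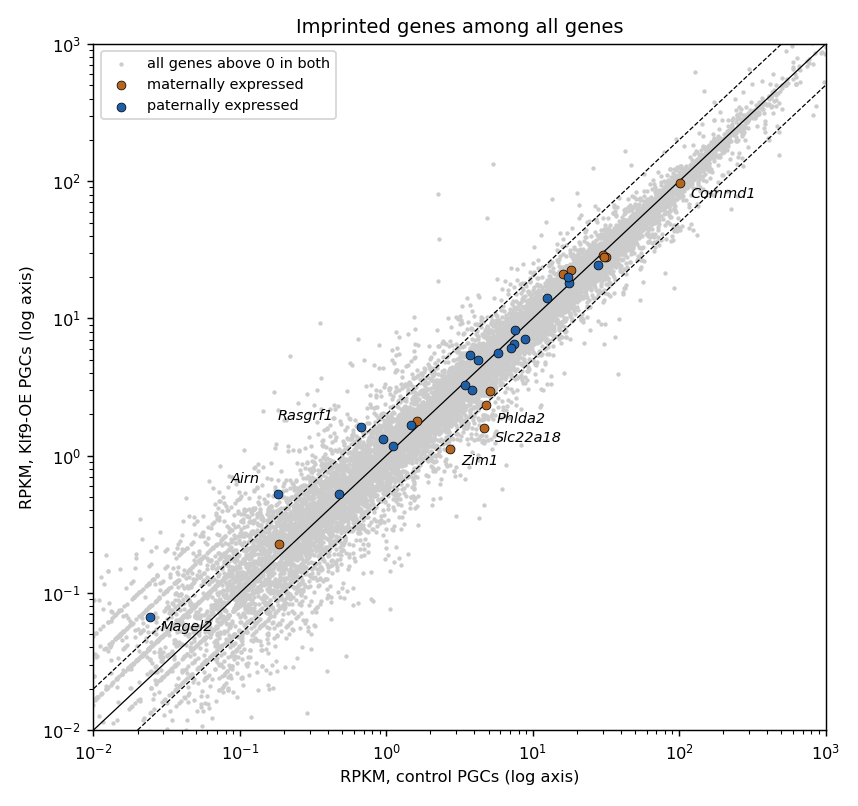
RPKM in control (x) and Klf9-OE PGCs (y), both on log axes, for all genes above 0 in both libraries (grey) and for maternally expressed (orange) and paternally expressed (blue) imprinted genes. The solid line marks equal RPKM and the dashed lines a ratio of 2 in either direction. Phlda2, Slc22a18 and Zim1 lie below the lower dashed line, and Rasgrf1, Airn and Magel2 lie above the upper one.

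With 1 library per condition no test was possible and no difference has a replicate check. The Cufflinks 95% interval, which covers the error of estimation within a library and not the spread between cultures, did not overlap between the libraries for 16 of the 33 genes. It lay higher in Klf9-OE PGCs for Cdkn1c, Grb10, Kcnq1ot1, Nnat, Rasgrf1, Zdbf2 and Inpp5f (7 genes, beside 11.2% of 18631 genes), and lower for Igf2r, Phlda2, Slc22a18, Ascl2, Zim1, Peg3, Peg10, Dlk1 and Usp29 (9 genes, beside 14.4%). The Usp29 interval in Klf9-OE PGCs ran from 0 to 0, so it lay apart from any control interval above 0. With 1 RPKM or more, which leaves out Usp29, intervals were separate for 7 and 8 of 28 genes, beside 14.8% and 20.2% of 12508 genes. Intervals are narrow for genes with many reads, so that a ratio of 0.882 for Igf2r was enough to part them. With the libraries rescaled to the same sum of RPKM, the intervals of Igf2r and Peg3 overlapped.

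The Kcnq1 cluster on chromosome 7 contributed 7 imprinted genes, and its maternally expressed genes took both directions. The cluster is controlled from the promoter of Kcnq1ot1, a paternally expressed noncoding RNA that runs antisense within Kcnq1. Kcnq1ot1 (chr7:143213111-143296547) had an RPKM of 0.953 in control (0.896 to 1.01) and 1.32 in Klf9-OE PGCs (1.25 to 1.39), with a ratio of 1.38. Kcnq1 itself was listed at 0 in both libraries. The library kit does not mark the strand of a read, so reads of Kcnq1ot1 and of Kcnq1 introns cannot be told apart. Cdkn1c, the inhibitor of cyclin-dependent kinases p57, had 16.1 in control (14.7 to 17.6) and 21.2 in Klf9-OE PGCs (19.6 to 22.8), with a ratio of 1.31. The interval widths correspond to about 492 and 723 reads for Cdkn1c. Such implied numbers for Klf9-OE PGCs, here and below, would be too high if reads of that library had been counted in pairs. Kcnq1ot1 and Cdkn1c were thus both higher in Klf9-OE PGCs, with intervals that did not overlap.

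Phlda2, Slc22a18 and Ascl2 of the same cluster were lower in Klf9-OE PGCs. Phlda2, a pleckstrin homology domain protein that restricts placental growth, had 4.79 in control (3.63 to 5.95) and 2.35 in Klf9-OE PGCs (1.62 to 3.08). That is a 2.04-fold lower level, with about 68.4 reads in control and 41.3 in Klf9-OE PGCs. Slc22a18, a membrane transporter of the organic cation transporter family, had 4.68 in control (3.39 to 5.96) and 1.60 in Klf9-OE PGCs (1.21 to 2.0), which is 2.92-fold lower and was the lowest ratio among the imprinted genes above 0 in both libraries. Ascl2, a basic helix-loop-helix factor of trophoblast, had 5.08 (4.35 to 5.81) and 2.96 (2.46 to 3.46), which is 1.72-fold lower, with about 192 and 140.0 reads. For Ascl2 the annotated gene was measured in both libraries. None of these intervals overlapped between the libraries, but with both libraries rescaled to the same sum of RPKM the ratio of Phlda2 was 0.511, no longer past 2-fold. Osbpl5 (1.61 and 1.80) and Tspan32 (0.185 and 0.228) had overlapping intervals.

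From Ascl2 to Osbpl5, 10 genes had 1 RPKM or more. The 4 not among the 41 (Cd81, Tssc4, Nap1l4 and Cars) had log2 fold changes from -0.20 to 0.15. Of these, Cd81, Tssc4 and Nap1l4 are in the second list of imprinted genes described below. Nap1l4, a histone chaperone gene beside Phlda2, had 156 in control (151 to 162) and 136 in Klf9-OE PGCs (131 to 141), also with separate intervals, and Cars had 27.9 and 31.0. Slc22a18 and Phlda2 thus lay between Cdkn1c, which was higher, and Nap1l4, whose log2 fold change was -0.20.

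**Figure D3:**
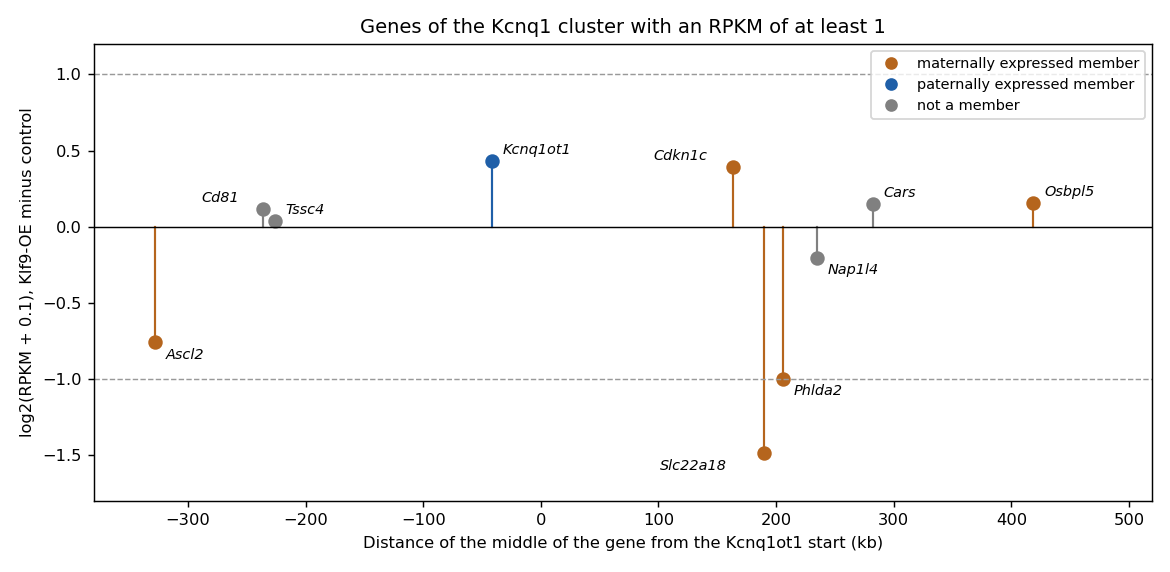
Log2 fold change (log2(RPKM + 0.1), Klf9-OE minus control) of the 10 genes of the Kcnq1 cluster with 1 RPKM or more, against the distance in kb of the middle of each gene from the start of Kcnq1ot1. Ascl2, Slc22a18 and Phlda2 (-0.76, -1.49 and -1.0) are below 0, and Kcnq1ot1 and Cdkn1c (0.43 and 0.39) are above it. The 4 genes not in the first list lie between -0.20 and 0.15, and of these Cd81, Tssc4 and Nap1l4 are in the second list of imprinted genes.

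The 3 lower genes with 1 RPKM or more share a feature of the files. Cufflinks assembled transcripts in each library separately, and Phlda2, Slc22a18 and Zim1 were measured on a locus assembled from reads in the control library but on the annotated gene in the Klf9-OE library. The Phlda2 row ended at position 143502819 of chromosome 7 in control and at 143502524 in Klf9-OE PGCs. The Zim1 row began at position 6675123 in control and at 6675443 in Klf9-OE PGCs, where a separate unnamed locus (chr7:6674854-6675386) had an RPKM of 2.35 (1.43 to 3.28). The Slc22a18 row had the same ends in both. Among genes with 1 RPKM or more in either library, 6 imprinted genes had such loci. Of these 3 were lower and none was higher, beside 6.63% lower and 1.55% higher among 2067 genes. The other 3 were Ddc, Impact and Inpp5f. At the same minimum, none of 10 imprinted genes assembled in both libraries was called, beside 3.32% higher and 2.93% lower among all such genes. Of 10 annotated in both Rasgrf1 was called, beside 4.44% and 4.2%. Below 1 RPKM, Usp29, assembled in both libraries, was lower, and Magel2 and Airn, annotated in both, were higher. The part of the assembly in the differences of Phlda2, Slc22a18 and Zim1 was not tested.

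The 3 listed genes of the Peg3 domain, at the proximal end of chromosome 7, had lower values in Klf9-OE PGCs. Peg3, a large paternally expressed zinc finger protein that acts on maternal behaviour and growth, had 27.8 in control (26.4 to 29.2) and 24.5 in Klf9-OE PGCs (23.3 to 25.7), with a ratio of 0.880. An unnamed locus at the 3′ end of Peg3 had 46.0 (43.3 to 48.7) and 37.4 (35.2 to 39.5). Zim1, a maternally expressed zinc finger gene downstream of Peg3, had 2.73 in control (2.34 to 3.11) and 1.12 in Klf9-OE PGCs (0.918 to 1.32), which is 2.44-fold lower. Usp29, a ubiquitin-specific protease gene that starts beside the Peg3 promoter on the other strand, had 0.344 (0.161 to 0.528) in control and was listed at 0 in Klf9-OE PGCs. No fold is given against a value of 0, which in Cufflinks output can be a failed estimate. Unnamed loci within the Usp29 span remained in Klf9-OE PGCs, and the one most like between the libraries had 4.52 (2.78 to 6.26) and 4.64 (3.04 to 6.25).

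Igf2, the fetal growth factor, had 7.44 in control (6.84 to 8.03) and 6.53 in Klf9-OE PGCs (6.03 to 7.03), with overlapping intervals. H19, the noncoding RNA that shares enhancers with Igf2, was read from a joint row with its microRNA Mir675, at 107 (11.2 to 203) and 91.8 (13.3 to 170.2). Igf2r, the receptor that clears IGF2, had 31.8 (30.5 to 33.2) and 28.1 (26.7 to 29.4). Airn, the noncoding RNA antisense to Igf2r, had 0.182 (0 to 0.465) and 0.530 (0 to 1.07), a ratio of 2.91 between values whose intervals both reach 0. Airn overlaps Igf2r, and without strand their reads cannot be told apart. Grb10, an adaptor that dampens insulin receptor signalling, had 18.2 (17.3 to 19.2) and 22.7 (21.6 to 23.7), a ratio of 1.24 with separate intervals. Its neighbour Ddc, which makes dopamine and serotonin, had 7.09 and 6.08. Plagl1, a zinc finger factor of growth control in a joint row with Hymai, had 1.49 (1.24 to 1.74) and 1.95 (1.71 to 2.18).

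In the Dlk1-Meg3 domain on chromosome 12, paternally expressed Dlk1 had a lower value and the maternally expressed RNAs Rian and Meg3 had higher values in Klf9-OE PGCs. Dlk1, a transmembrane ligand related to the Notch ligands, had 8.81 in control (8.20 to 9.42) and 7.07 in Klf9-OE PGCs (6.56 to 7.59), with a ratio of 0.803. Rian, a noncoding RNA that hosts small nucleolar RNAs, had 83.9 (79.8 to 87.9) and 102 (97.8 to 105.7) in its joint row, a ratio of 1.21 with separate intervals. Meg3, the noncoding RNA at the start of that transcription unit, had 90.9 and 115 in its joint row, but the intervals reached from 0 to 228 and from 2.11 to 227. The retrotransposon-derived Rtl1 was near 0, at 0.0884 and 0.137. Rian and Meg3 thus stood among the highest imprinted genes, with Commd1 and H19, though the Meg3 and H19 rows were poorly determined.

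The Snrpn domain, known in people from Prader-Willi and Angelman syndromes, showed no difference of 2-fold in any gene with 1 RPKM or more. Ube3a, a ubiquitin ligase that is imprinted in neurons, had 30.3 (29.0 to 31.7) in control and 29.2 (27.9 to 30.4) in Klf9-OE PGCs. Ndn, a MAGE family protein, had 17.7 (16.4 to 19) and 18.2 (16.9 to 19.4). Snrpn, a spliceosome component in a joint row with Snurf, had 11.3 (10.2 to 12.4) and 12.3 (11.3 to 13.4). Mkrn3, a ring finger protein, had 3.44 and 3.25, and Peg12 had 1.10 and 1.17. Magel2, another MAGE family gene, had 0.0244 and 0.0668. The 2.73-fold ratio of Magel2 rests on about 3.0 and 9.59 reads, and its intervals (0 to 0.0527 and 0.0237 to 0.110) overlapped.

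Rasgrf1 (chr9:89909775-90026979), an exchange factor that activates RAS, was the only one of the 28 imprinted genes with 1 RPKM or more to reach a ratio of 2, and it passed that minimum in Klf9-OE PGCs alone. It had 0.668 in control (0.484 to 0.851) and 1.61 in Klf9-OE PGCs (1.37 to 1.86), with a ratio of 2.41, and was measured on the annotated gene in both libraries. Its imprinted expression is known from neonatal brain. Unnamed loci inside Rasgrf1 numbered 1 in control and 5 in Klf9-OE PGCs. Over the whole genome unnamed loci numbered 6482 and 15127, which is 2.33 times as many in Klf9-OE PGCs.

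Nnat, a small membrane proteolipid, was next by ratio among genes with 1 RPKM or more, at 3.72 (2.96 to 4.49) and 5.44 (4.59 to 6.29), a ratio of 1.46. Nnat lies within an intron of Blcap, which had 30.9 (28.8 to 32.9) and 28.2 (26.5 to 30.0). Zdbf2 had 4.25 (4.0 to 4.50) and 5.01 (4.74 to 5.28), and Inpp5f, an inositol phosphatase, had 17.5 (16.4 to 18.5) and 20.1 (19.4 to 20.8), with ratios of 1.18 and 1.15. The retrotransposon-derived Peg10, required in the placenta, had 3.87 (3.57 to 4.16) and 3.0 (2.77 to 3.24), a ratio of 0.777. Sgce, a sarcoglycan gene transcribed away from Peg10, had 1.48 and 1.68. Thus Nnat, Zdbf2 and Inpp5f were higher and Peg10 was lower with separate intervals, while Blcap and Sgce overlapped. The Nnat intervals overlapped once that of Klf9-OE was widened by the square root of 2.

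The remaining genes had overlapping intervals. Mcts2, a retrogene within H13, had 12.5 in control and 14.1 in Klf9-OE PGCs, and reads that fit its parent gene Mcts1 (8.40 and 8.06) may be divided between them. Zrsr1, a retrogene within Commd1 that is related to Zrsr2 (48.5 and 48.9), had 5.82 and 5.64. Impact, a regulator of translation under stress, had 7.51 and 8.17. Nap1l5, a retrogene within Herc3 (20.7 and 18.8), had 0.473 and 0.528. The ratios of these 4 genes lay between 0.969 and 1.12.

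By class, the maternally expressed genes with 1 RPKM or more had a median log2 fold change of -0.13 (11 genes, 3 above 0 and 8 below) and the paternally expressed genes one of 0.08 (17 genes, 10 above and 7 below). All 3 genes called lower with 1 RPKM or more were maternally expressed, and the 1 called higher was paternally expressed, beside 3.79% lower and 3.93% higher among all genes. These called genes are all imprinted only in some tissues or isoforms, and the 3 lower ones were assembled in the control library only. Of the 15 genes imprinted broadly with 1 RPKM or more, none was called. Intervals were separate for 2 maternally expressed genes in the higher direction and 5 in the lower, and for 5 and 4 paternally expressed genes, beside 11.2% higher and 14.4% lower among all genes. The difference between the classes was not tested. The maternal median rests on genes imprinted only in some tissues or isoforms. Without them a single gene with a row of its own, Cdkn1c, was left at 0.39.

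**Figure D4:**
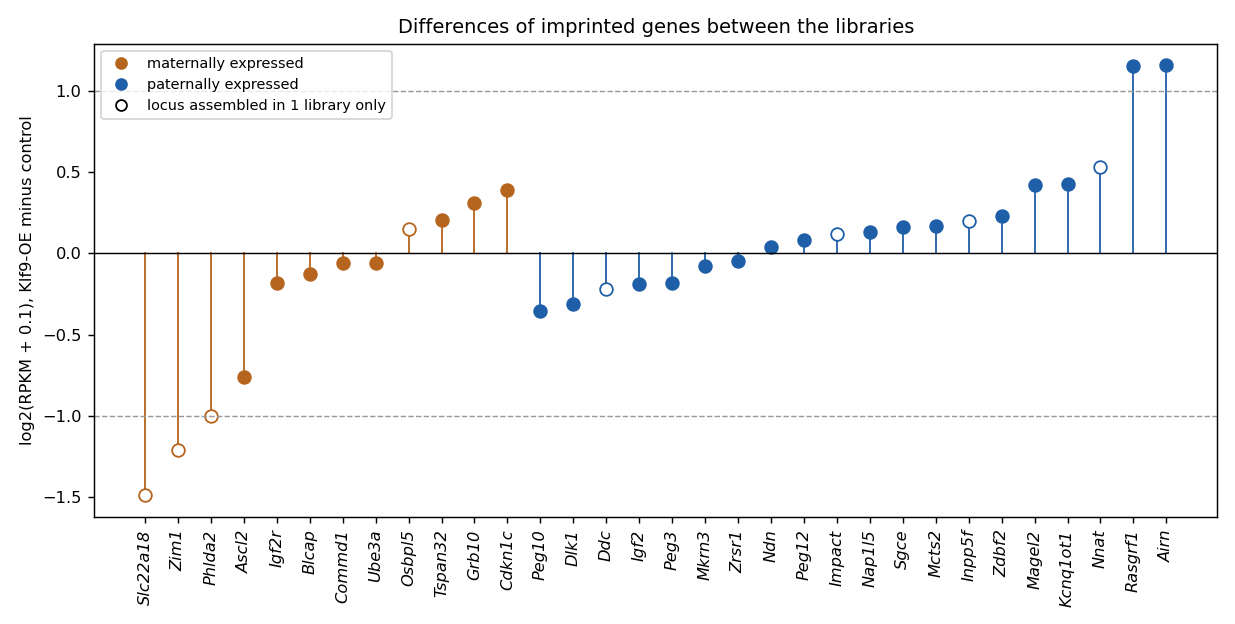
Log2 fold change (log2(RPKM + 0.1), Klf9-OE minus control) of each imprinted gene above 0 in both libraries, maternally expressed genes in orange and paternally expressed genes in blue, each ordered by value. Dashed lines mark 1 and -1, and open circles mark genes whose locus was assembled in 1 library only. Slc22a18, Zim1 and Phlda2, all open circles, have the lowest values, and Rasgrf1 and Airn the highest.

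A second list of 45 imprinted genes, not among the 41, was used beside them. Of these, 42 were found and 28 had 1 RPKM or more, and none of the 28 differed 2-fold in either direction, beside 3.93% higher and 3.79% lower among all genes at this minimum. Over the 40 genes above 0, 4 were higher and 3 lower, beside 9.82% and 9.43%. The median log2 fold change of the 28 was 0.01. Intervals of the 28 were separate and higher for Pon2 (a ratio of 1.92), Begain (1.84), Slc38a4 (1.59) and Adam23 (1.41). They were separate and lower for Asb4 (0.570), Ppp1r9a (0.775), Atp10a (0.840), Sfmbt2 (0.860) and Nap1l4 (0.869). Among all genes with 1 RPKM or more, 14.8% were higher and 20.2% lower by this measure. Most of these genes were named after their values were seen. Nap1l4, Gnas and Copg2 were the highest of the 28. Among 16 genes that set, protect or remove imprints, all had 1 RPKM or more, and the median log2 fold change was 0.07. Of these 16, 1 was at least 2-fold lower and 1 higher, beside 3.79% and 3.93% of all genes at this minimum. Dnmt3l, a cofactor of de novo methylation that male germ cells use to set new imprints, had 80.9 in control (77.2 to 84.7) and 38.1 in Klf9-OE PGCs (36.0 to 40.2), which is 2.12-fold lower. Ctcfl, the germ line paralog of the insulator protein CTCF, had 1.82 (1.45 to 2.19) and 4.09 (3.25 to 4.92), a ratio of 2.24. Dppa3, which protects methylation in the zygote, had 294 and 179. Trim28, the partner of ZFP57, had 282 and 199, with an interval in Klf9-OE PGCs that reached from 0 to 11472. Dnmt1, the maintenance methyltransferase, had 101 and 98.1. Within this list, intervals were separate and higher for Ctcfl, Uhrf1 (36.9 and 47.9), Ctcf (16.3 and 20.1) and Tet1 (10.7 and 11.6), beside 14.8%. They were separate and lower for Dnmt3l, Dppa3 and Dnmt3a (27.1 and 22.3), beside 20.2%.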

How the data were processed

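RNA-seq was described for 1 control and 1 Klf9-OE library of cultured E13.5 PGCs. Per the labels and methods, the authors prepared libraries with a kit that does not mark strand, used TopHat2 with Bowtie to map reads to mm10, and Cufflinks to estimate expression (versions not given in the sources used here). The deposited values are FPKM of each locus with 95% bounds, which for single-end reads equal RPKM. Cuffdiff results were not used here. The imprinted genes and all gene lists were chosen with earlier results of these data known.

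From these values, RPKM was summed over rows of a symbol, 23320 symbols were compared, and ratios of 2 or more, or 0.5 or less, were counted with no pseudocount. Log2 fold changes used a pseudocount of 0.1. With 1 library per condition no test, replicate check or leaving out of libraries was possible. All listed genes found were named. From the other lists, genes that differed 2-fold with 1 RPKM or more and the 3 highest of each list were named. Neighbours of listed genes and some further markers, imprinted genes and genes that act on imprints were added after their values were seen. Alternatives were other folds, filters, pseudocounts, scalings and sets of genes. File starts count from 0 and are given from 1.

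The files hold no read totals, so depth is unknown. Interval widths imply read numbers as the square of 2 times the RPKM over the distance to the upper bound, for genes with a single transcript start. By this measure 1.22 reads stood in Klf9-OE for each in control (2647 genes). Implied reads from 1 to 9 that lay within 0.06 of a whole number were even for 36.5% of 2091 genes in control and 89.5% of 1738 in Klf9-OE. Had reads of the Klf9-OE library been counted in pairs, its implied read numbers and the value of 1.22 would be too high. Whether they were was not tested. The calculations were tested on simulated data. The simulated intervals were built with the formula that the implied read numbers invert, so the read numbers of the real libraries were not tested by them. Python 3.11.15, numpy 2.4.6, pandas 2.3.3 and matplotlib 3.10.9 were used.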

Additional observations from a re-analysis of the deposited data

Results flagged for a closer look

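Loci without a gene name entered no comparison. Those that overlap loci of the listed imprinted genes numbered 26 in the Klf9-OE library and 12 in the control library, in 9 and 7 genes, a ratio of 2.17. Over the whole genome their number was 2.33 times as high in Klf9-OE as in control PGCs. Within imprinted genes most of the Klf9-OE loci lay in Meg3, Rasgrf1 and Usp29.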

How the results depend on the processing

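Over 12 alternatives, 42 of 49 recomputed values moved by at most 0.1 (log2 medians) or 1.5 times (counts), and 7 moved by more. With a ratio of at least 4, 0 imprinted genes were higher and 1 (Usp29, listed at 0 in Klf9-OE) was lower. With 1 RPKM or more in either library, 1 was higher. With a pseudocount of 1, 0 were higher and 1 (Slc22a18) was lower. The maternal median without genes imprinted only in some tissues or isoforms was 0.39, from Cdkn1c alone. Without the 8 genes whose locus was assembled in 1 library only, an alternative chosen after seeing the data, 1 gene (Usp29) was lower. For the folds and the pseudocount the stricter criterion itself accounts for the lower counts. Rescaling to the same upper quartile or sum shifted log2 ratios by 0.02 or 0.06 and turned no median, but at the same sum 7 genes, without Igf2r and Peg3, were lower with separate intervals. The median of all listed genes was 0.04 over the genes above 0 and -0.05 with 1 RPKM or more. The Phlda2 ratio was then 0.497 or 0.511, which leaves 3 genes lower at the same sum. With the Klf9-OE interval widened by the square root of 2, as if reads had been counted in pairs, 6 genes, without Nnat, were higher and 9 lower with separate intervals. The widening could not change Usp29, whose interval in Klf9-OE ran from 0 to 0. No paired analysis was possible because each condition has 1 library. Magel2 and Airn are poorly determined, with control intervals that reach 0.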
